A study of Mus musculus with 4 samples.

Results

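The ribosomal protein genes of mouse microglia were followed after whole-brain irradiation. Members were taken by symbol: every gene named Rpl or Rps followed by a number, together with Rplp0, Rplp1, Rplp2 and Rpsa. Symbols with -ps, which mark copies, and the kinases named Rps6k were left out. Of the -ps features some are annotated as processed pseudogenes and others as protein coding. The rule found 87 genes among 27998 gene features. They comprise 31 small-subunit proteins, 43 large-subunit proteins, 3 proteins of the stalk, 9 paralogs or copies of another ribosomal protein gene, and Rps19bp1, a binding protein of Rps19 that the name rule also takes and that is not itself a ribosomal protein. A fold was computed for a member with at least 50 UMIs over both libraries compared, a UMI being the tag by which each captured molecule is counted once, and 84 members passed. Rpl10l had 0 UMIs in all 4 libraries, which at a floor of 3 counts allows up to 0.407 CPM (UMIs of the gene scaled to the library total) in irradiated and 0.308 CPM in sham microglia at 6 h, and up to 0.389 CPM in irradiated and 0.529 CPM in sham microglia at 1 week. Rpl3l had 0 UMIs in irradiated and 3 in sham microglia at 6 h, and 1 in each library at 1 week. Rpl39l had 14 UMIs in irradiated and 21 in sham microglia at 6 h, and 25 in irradiated and 20 in sham microglia at 1 week.

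The study profiled single microglia of C57BL/6 mice by droplet sequencing (10x Genomics Chromium), and the design text asks whether responding genes are expressed together in the same cells. There were 4 libraries: irradiated at 6 h, sham at 6 h, irradiated at 1 week and sham at 1 week after the procedure. Irradiated mice received a single dose of 8 Gy to the whole brain at postnatal day 21, and sham mice were the controls without a dose; no allele or other agent is named, and the labels give P21 as the age of all of them. Each library was 1 pool of 4 mice, so a difference between libraries cannot be told apart from a difference between pools or between preparations, and no p-value can be had. Brain is the source on the labels, whereas the design text refers to the hippocampus, and the region sampled is not settled here. Every interval below is a 95% interval that covers counting error only.

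Ribosomal proteins bind ribosomal RNA to form the small (40S) and large (60S) subunits of the ribosome, and the acidic proteins of the stalk recruit the factors that drive translation. Their mRNAs are among the most abundant of any cell and share a short pyrimidine tract at the 5′ end, the TOP motif, through which growth signals set their translation together. Free ribosomal proteins also act outside the ribosome: Rpl5 and Rpl11, carried with 5S RNA, bind and block Mdm2, the ubiquitin ligase of p53. Rps27l, a paralog of Rps27, is a transcriptional target of p53, and loss-of-function alleles of RPS19 are a common cause of Diamond-Blackfan anaemia in people.

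The kept barcodes numbered 1986 in irradiated and 2652 in sham microglia at 6 h, and 2149 in irradiated and 1582 in sham microglia at 1 week, with median depths of 3437 to 3594 UMIs per barcode. Totals over kept barcodes were 7365977 UMIs in irradiated and 9736149 in sham microglia at 6 h, and 7716334 UMIs in irradiated and 5675117 in sham microglia at 1 week. All 9 microglia markers (P2ry12, Tmem119, Csf1r and others) were found in each library, at a summed 39875 CPM in irradiated and 49926 CPM in sham microglia at 6 h, and 49653 CPM in irradiated and 47787 CPM in sham microglia at 1 week. All 6 neutrophil markers were at 0 UMIs in all 4 libraries. The 7 astrocyte markers summed to 258 CPM in irradiated and 148 CPM in sham microglia at 6 h, with all 7 found in irradiated and 5 in sham microglia, and to 181 CPM in irradiated and 143 CPM in sham microglia at 1 week, with 6 found in each. The other marker lists (oligodendrocyte, neuron, endothelial, monocyte, border macrophage, lymphocyte and erythroid) summed to at most 122 CPM in any library. Pairs of libraries shared between 4 and 12 barcode sequences. As a check of the labels, Cdkn1a, the p53 target that stops the cell cycle, had 21689 UMIs in irradiated against 508 in sham microglia at 6 h, and 17026 in irradiated against 322 in sham microglia at 1 week.

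Ribosomal protein transcripts were a slightly larger part of the library after irradiation at 6 h and a slightly smaller one at 1 week. They held 11.02% of the UMIs in irradiated and 9.94% in sham microglia at 6 h, and 9.63% in irradiated and 10.4% in sham microglia at 1 week. The log2 ratio of irradiated over sham was 0.15 (interval 0.14 to 0.15) at 6 h and -0.10 (interval -0.11 to -0.10) at 1 week. The sham libraries themselves differed, with a log2 ratio of 0.06 of the later sham library over the earlier one. Set against the sham library of the other time, the irradiated library at 6 h kept a log2 ratio of 0.09 and the irradiated library at 1 week one of -0.05. The irradiated library at 6 h was also the one with the lowest summed microglia markers and the highest astrocyte markers, and among barcodes with at least 4 of the 9 microglia markers its log2 ratio over sham at 6 h was 0.14.

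Most members lay on the same side of 0 by a small amount, and most uniformly at 6 h. At 6 h 82 of 84 members lay above 0 in log2 fold of irradiated over sham, with a median of 0.12 and quartiles of 0.10 and 0.18, while 42.9% of all 9934 measured genes lay above 0 and their median was -0.06. All 31 small-subunit, all 43 large-subunit and all 3 stalk members were above 0, and only Rpl7l1 and Rpl36al, both paralogs, were below it. At 1 week 67 of 84 members lay below 0, with a median of -0.13 and quartiles of -0.25 and -0.03, while 55.9% of all 9518 measured genes lay above 0 and their median was 0.04. Between the sham libraries 55 of 84 members lay above 0, with a median of 0.10 and wider quartiles of -0.10 and 0.23, against 41.7% of 9728 genes and a median of -0.05. Genes outside the family with at least 2000 UMIs had quartiles of -0.26 and 0.14 at 6 h, and -0.07 and 0.15 at 1 week. Between the sham libraries their quartiles were -0.14 and 0.08. The members were thus clearly closer together than those genes at 6 h only, and more widely spread between the sham libraries.

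The common shift was close in size to the difference between the sham libraries, and each of its medians shrank against the other sham library. Irradiated microglia at 6 h over sham microglia at 1 week gave a median member of 0.04, with 49 of 84 members above 0 beside 48.5% of all genes; 4 members were at least 1.5-fold higher beside 11.8% of genes, and 0 lower beside 9.51%. Irradiated microglia at 1 week over sham microglia at 6 h gave a median member of -0.02, with 48 of 84 members below 0 and 36 above it, beside 47.9% of all genes above 0; 1 member, Rps27l, was at least 1.5-fold higher beside 3.81% of genes, and 1, Rpl35, lower beside 4.83%. The uniform direction at 6 h was therefore seen against the sham library of the same time and not against the other one. The comparisons share libraries and are not independent of each other. Genes of dissociation and immediate early response, a list of 12, moved with the sham libraries as well. Their median log2 fold was 0.55 between the sham libraries, with 5 of 12 at least 1.5-fold higher at 1 week beside 2.89% of genes. For irradiated over sham their median was -0.31 at 6 h and -0.16 at 1 week. Their part in the ribosomal protein shift was not tested.

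Few members passed a 1.5-fold difference (log2 0.58). At 6 h 4 of 84 were at least 1.5-fold higher after irradiation, namely Rps27l, Rps27rt, Rps19 and Rpl6l, where 8.97% of all measured genes were, and 0 were 1.5-fold lower, where 9.31% of genes were. At 1 week 2 were higher, Rps27l and Rps19, beside 4.01% of all genes, and 0 were lower, beside 3.12%. Between the sham libraries Rps12, Rps21 and Rplp1 were at least 1.5-fold higher at 1 week, 3 members beside 2.89% of genes, and Rpl35 was lower, 1 member beside 4.89%. Among genes with at least 2000 UMIs over both libraries, a set nearer to the members in depth, 7.4% were at least 1.5-fold higher after irradiation at 6 h and 1.57% at 1 week.

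**Figure D1:**
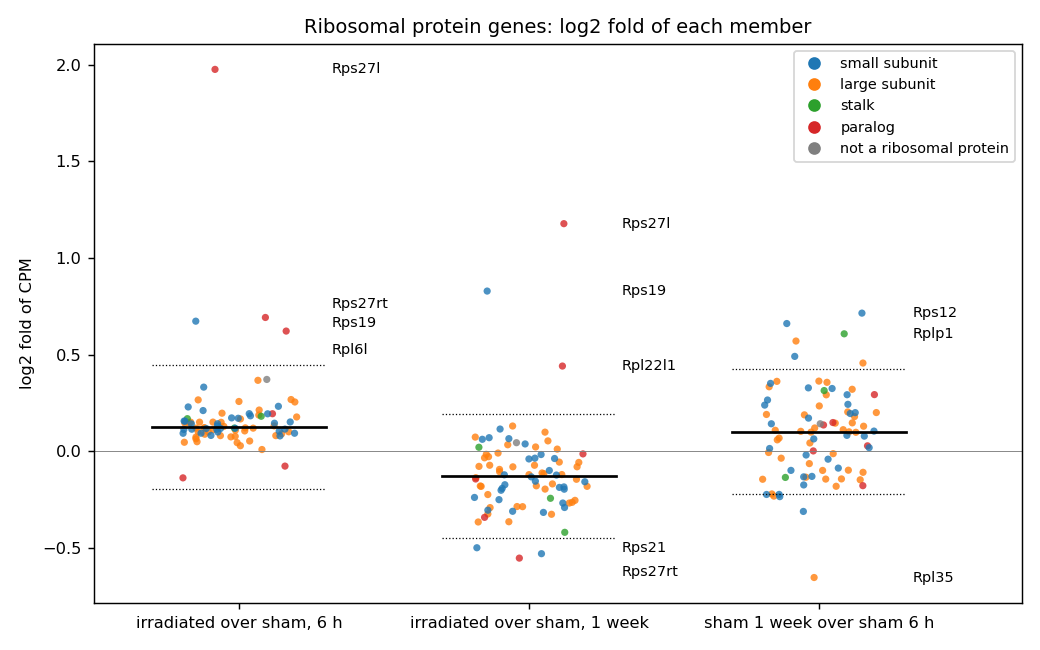
Log2 fold of CPM for each of the 84 measured members (points, coloured by role) in irradiated over sham microglia at 6 h, in irradiated over sham microglia at 1 week, and in sham microglia at 1 week over sham microglia at 6 h. The thick line is the median member (0.12, -0.13 and 0.10) and dotted lines lie 0.32 either side of it; Rps27l stands highest in both irradiated comparisons, and the members spread more widely between the sham libraries than at 6 h.

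A member was said to leave the common shift where its log2 fold lay at least 0.32 from that of the median member and its interval did not reach that median. At 6 h 4 members left it upwards, Rps27l, Rps27rt, Rps19 and Rpl6l, and 0 downwards, where 10.3% and 29.2% of all genes lay as far above and below. At 1 week 3 left it upwards, Rps27l, Rps19 and Rpl22l1, beside 17.2% of genes, and 3 downwards, Rps27rt, Rps21 and Rps12, beside 3.15%. Between the sham libraries 6 members left it upwards and 7 downwards, beside 3.41% and 17.4% of genes, so that more members moved apart between the sham libraries than between irradiated and sham microglia at either time. Rps27l and Rps19 were the members that left the shift upwards at both times against either sham library. Over the other sham library 7 members left the shift upwards and 6 downwards at 6 h, beside 16.3% and 19.6% of genes, and 4 each way at 1 week, beside 8.08% and 8.25%.

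Just inside and just outside this distance the members graded into each other. At 1 week Rps12 lay -0.37 from the median member on the log2 scale and left the shift, while Rplp1, with a fold of -0.42 against the median of -0.13, stayed within it. At 6 h the gap was wider: Rpl6l lay 0.50 above the median and left, and the next member, Rps19bp1, had a fold of 0.37 against the median of 0.12.

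In 4 of 85 members with at least 50 UMIs over all libraries, both irradiated libraries lay above both sham libraries, where 14.5% of 10635 genes did so. These were Rps27l, Rps19, Rpl22l1 and Rps19bp1. No member had both irradiated libraries below both sham libraries, where 16.8% of genes did. With a gap of at least 0.32 in log2 only Rps27l and Rps19 remained above, 2 of 85 members beside 2.26% of genes, and 0 were below, beside 2.01%.

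Rps27l was the member that differed most. It counted 5310 UMIs in irradiated and 1783 in sham microglia at 6 h, and 2824 in irradiated and 918 in sham microglia at 1 week. This corresponded to 721 CPM in irradiated and 183 CPM in sham microglia at 6 h, and to 366 CPM in irradiated and 162 CPM in sham microglia at 1 week. Both irradiated libraries were high and both sham libraries low and close to each other. The log2 fold of irradiated over sham was 1.98 (interval 1.90 to 2.06) at 6 h and 1.18 (interval 1.07 to 1.29) at 1 week, against -0.18 (interval -0.30 to -0.06) of the later sham library over the earlier one. Over the other sham library the folds were 2.16 at 6 h and 1.00 at 1 week. Within the ribosomal protein pool Rps27l supplied 6.54 of every 1000 member UMIs in irradiated and 1.84 in sham microglia at 6 h, and 3.80 in irradiated and 1.56 in sham microglia at 1 week.

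The gene that Rps27l resembles stayed with the rest. Rps27, a zinc-finger protein of the small subunit, had 3064 CPM in irradiated and 2832 CPM in sham microglia at 6 h, and 2224 CPM in irradiated and 2424 CPM in sham microglia at 1 week. Its log2 folds of 0.11 at 6 h and -0.12 at 1 week sat at the median member. For every 100 UMIs of Rps27 there were 23.5 of Rps27l in irradiated and 6.47 in sham microglia at 6 h, and 16.5 in irradiated and 6.67 in sham microglia at 1 week. The paralog ratio thus differed between irradiated and sham libraries at both times while the counts assigned to the parent gene moved with the common shift.

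Rps27rt, a retrogene of Rps27, behaved differently from Rps27l. It counted 6895 UMIs in irradiated and 5641 in sham microglia at 6 h, and 3103 in irradiated and 3351 in sham microglia at 1 week, or 936 CPM in irradiated and 579 CPM in sham microglia at 6 h and 402 CPM in irradiated and 590 CPM in sham microglia at 1 week. The sham libraries were alike, the irradiated library at 6 h was the highest of all and the irradiated library at 1 week the lowest. The log2 fold was 0.69 (interval 0.64 to 0.74) at 6 h and -0.55 (interval -0.63 to -0.48) at 1 week, with 0.03 between the sham libraries. Per 100 UMIs of Rps27 there were 30.6 of Rps27rt in irradiated and 20.5 in sham microglia at 6 h, and 18.1 in irradiated and 24.4 in sham microglia at 1 week.

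The coding sequences show how far these genes differ in their coding bases. They are printed for the parent and its p53-responsive paralog to mark the bases in which these differ. Where the reads fall along the transcripts was not examined. All 3 genes have 255 coding bases in the GENCODE vM21 annotation of GRCm38. Rps27 lies on the minus strand at chr3:90212522-90213651, Rps27rt on the minus strand at chr9:114982366-114982739 and Rps27l on the plus strand at chr9:66946086-66949516. In the Rps27l sequence the capitals mark the bases that differ from Rps27 at the same place.
Rps27: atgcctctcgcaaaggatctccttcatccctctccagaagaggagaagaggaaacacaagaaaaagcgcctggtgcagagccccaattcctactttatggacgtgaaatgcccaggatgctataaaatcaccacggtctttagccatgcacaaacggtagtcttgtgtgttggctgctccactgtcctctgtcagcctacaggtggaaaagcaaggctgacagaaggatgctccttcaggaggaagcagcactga
Rps27l: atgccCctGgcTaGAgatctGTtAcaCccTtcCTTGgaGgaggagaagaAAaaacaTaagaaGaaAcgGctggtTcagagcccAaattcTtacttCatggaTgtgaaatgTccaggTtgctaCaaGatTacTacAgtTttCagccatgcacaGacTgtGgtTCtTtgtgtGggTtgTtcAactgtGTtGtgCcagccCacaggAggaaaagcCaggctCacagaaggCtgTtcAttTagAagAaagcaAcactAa

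Rps27l differed from Rps27 at 61 of the 255 bases, an identity of 76.1%. The coding sequence of Rps27rt differed from that of Rps27 at 0 bases and would print as the same line. The last 300 bases of Rps27l had no near-identical copy (at least 97% identity over at least 90 bases) among the annotated transcripts, while those of Rps27 and Rps27rt matched each other. How reads that match both were counted is not given in the sources used here, so the counts of Rps27rt are uncertain as a measure of that gene alone, and part of them can be reads of Rps27.

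The start sites of the Rps27 genes and of 3 other members are shown because all 3 Rps27 genes carry a pyrimidine tract where transcription begins. Each line gives 10 bases before and 20 bases from a RefSeq transcript start (table of build GRCm38.p6), and the capitals mark the tract, a C followed by at least 4 bases of C or T that begins within 5 bases of the start.
Rps27: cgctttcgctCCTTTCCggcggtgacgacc
Rps27rt: ttatcccttgCTTTCCggcggtgacgacct
Rps27l: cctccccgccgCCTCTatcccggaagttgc
Rpl22l1: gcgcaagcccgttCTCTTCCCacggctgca
Rpl35: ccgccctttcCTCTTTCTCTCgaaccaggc
Rps19: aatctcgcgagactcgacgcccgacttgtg

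These windows lie at chr3:90213629-90213658 on the minus strand for Rps27, chr9:114982720-114982749 on the minus strand for Rps27rt, chr9:66946076-66946105 on the plus strand for Rps27l, chr3:28805498-28805527 on the plus strand for Rpl22l1, chr2:39005112-39005141 on the minus strand for Rpl35 and chr7:24884582-24884611 on the plus strand for Rps19. The table lists 2 starts for Rps27l and 3 for Rps19, of which 1 and 0 held a tract, and that says only that these letters are not in those windows. A tract on the transcribed strand was found for 30 of the 66 members with a RefSeq promoter (45.5%), against 5718 of 27025 genes (21.2%). Among the members matched, 27 of 57 small-subunit, large-subunit and stalk members held it, and 3 of 8 paralogs did.

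**Figure D2:**
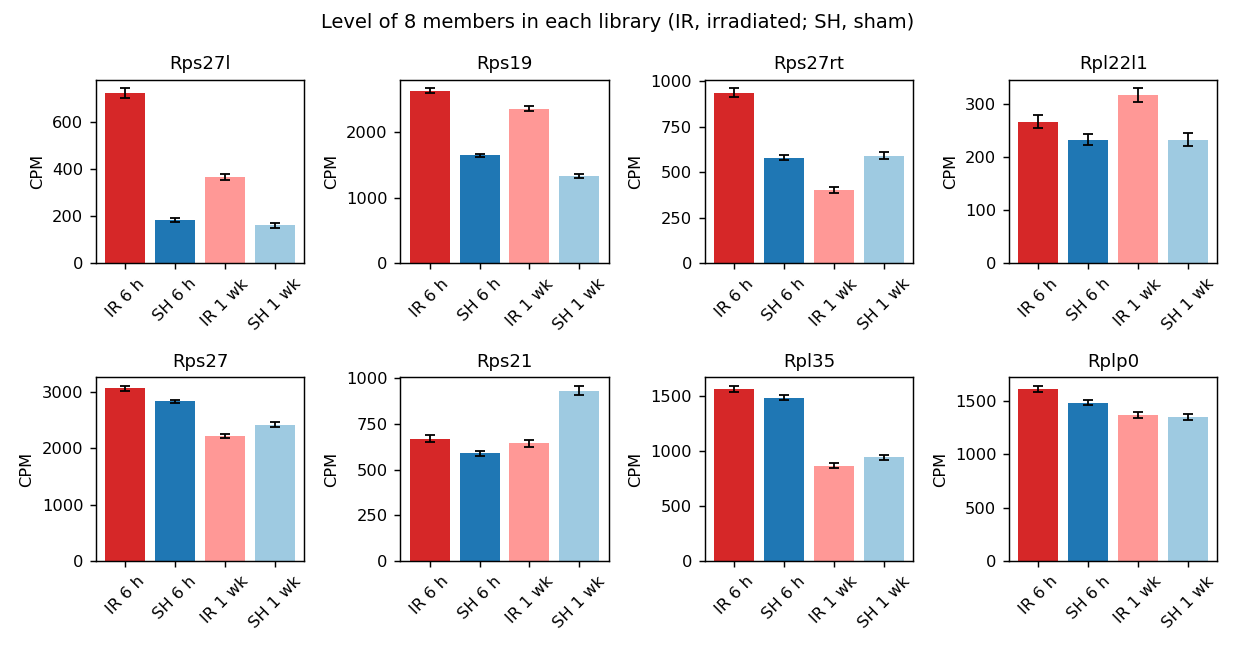
CPM of 8 members in the irradiated (IR) and sham (SH) libraries at 6 h and 1 week; bars are 1 library each and error bars are exact 95% intervals that cover counting error only. Rps27l and Rps19 are highest in the irradiated libraries at both times, Rps27rt is highest in irradiated microglia at 6 h and lowest in irradiated microglia at 1 week, and Rpl35 is lower in both 1-week libraries.

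Rps19, a small-subunit protein needed to mature the 3′ end of 18S ribosomal RNA, was the only canonical member that was at least 1.5-fold higher in both irradiated libraries against their own shams. It lies on the plus strand at chr7:24884371-24889806 and ranked among the 10 members of highest mean level. It counted 19324 UMIs in irradiated and 16021 in sham microglia at 6 h, and 18162 in irradiated and 7520 in sham microglia at 1 week, or 2623 CPM in irradiated and 1646 CPM in sham microglia at 6 h and 2354 CPM in irradiated and 1325 CPM in sham microglia at 1 week. Both irradiated libraries lay above both sham libraries. The log2 fold was 0.67 (interval 0.64 to 0.70) at 6 h and 0.83 (interval 0.79 to 0.87) at 1 week. The sham libraries differed by -0.31, with less at 1 week, and over the other sham library the folds were 0.99 at 6 h and 0.52 at 1 week.

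The binding partner and the sequence copies of Rps19 were also examined. Rps19bp1, which is also known as an activator of the deacetylase Sirt1, had 61.8 CPM in irradiated and 47.8 CPM in sham microglia at 6 h, and 54.3 CPM in irradiated and 52.7 CPM in sham microglia at 1 week. Its log2 folds were 0.37 (interval 0.18 to 0.56) and 0.04 (interval -0.17 to 0.26). Near its 3′ end Rps19 had 4 near-identical annotated copies, of which 0 were features of the count tables.

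Rpl22l1, the paralog of the RNA-binding large-subunit protein Rpl22, left the shift at 1 week alone. It had 267 CPM in irradiated and 233 CPM in sham microglia at 6 h, and 317 CPM in irradiated and 233 CPM in sham microglia at 1 week, so the sham libraries were equal and the irradiated library at 1 week was the highest. The log2 fold was 0.19 (interval 0.11 to 0.28) at 6 h, near the median member, and 0.44 (interval 0.34 to 0.54) at 1 week. Rpl22 itself had log2 folds of 0.05 and -0.29. For every 100 UMIs of Rpl22 there were 65.8 of Rpl22l1 in irradiated and 59.5 in sham microglia at 6 h, and 79.0 in irradiated and 47.7 in sham microglia at 1 week.

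Rpl6l, annotated as a processed pseudogene on chromosome 10, is a copy of the large-subunit gene Rpl6. It had 327 CPM in irradiated and 212 CPM in sham microglia at 6 h, and 205 CPM in irradiated and 260 CPM in sham microglia at 1 week. The irradiated library at 6 h was high and the irradiated library at 1 week low, as for Rps27rt. The log2 fold was 0.62 (interval 0.54 to 0.71) at 6 h and -0.34 (interval -0.45 to -0.24) at 1 week, and over the other sham library it was 0.33 and -0.05. Rpl6 is its near-identical counted copy, so its counts carry the same uncertainty as those of Rps27rt.

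Of the other paralogs, Rpl36al and Rpl7l1 stayed within the common shift. Rpl36al, which encodes a protein nearly the same as Rpl36a, had log2 folds of -0.08 at 6 h and -0.14 at 1 week. Rpl7l1, a paralog of Rpl7, had log2 folds of -0.14 and -0.01. At 6 h the 6 measured paralogs spanned -0.14 to 1.98, against 0.01 to 0.37 in the 43 large-subunit and 0.08 to 0.67 in the 31 small-subunit members. Of the 4 members that left the shift 3 were paralogs or copies. Among these the counts of Rps27rt and Rpl6l are uncertain, as said above.

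**Figure D3:**
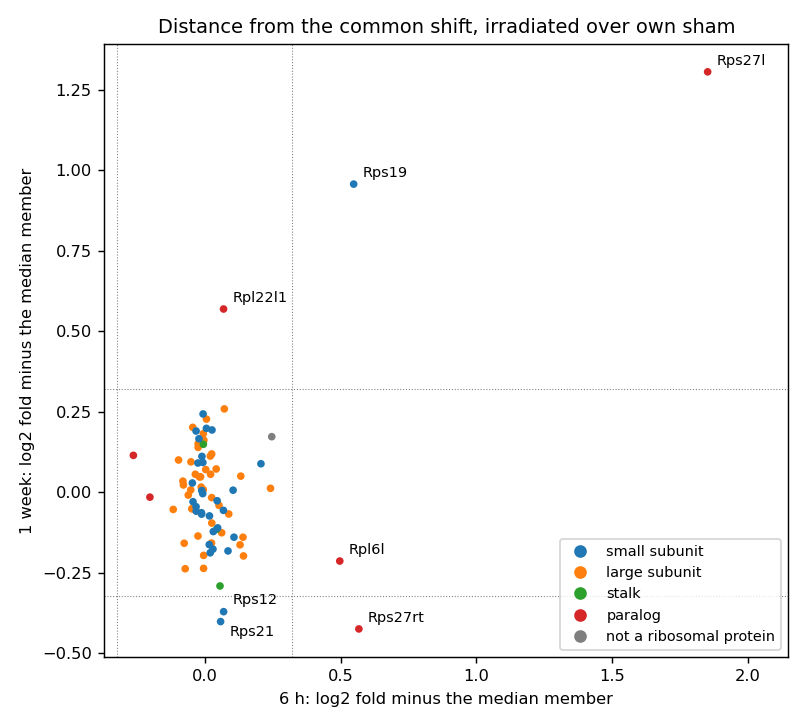
Distance of each measured member from the median member, in log2 fold of irradiated over the sham library of its own time, at 6 h (horizontal) and at 1 week (vertical). Dotted lines mark a distance of 0.32; Rps27l and Rps19 lie above the line at both times, Rpl22l1 at 1 week, Rps27rt and Rpl6l lie to the right at 6 h, and Rps27rt, Rps21 and Rps12 lie below the line at 1 week.

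Rps21 and Rps12, both small-subunit proteins, were the canonical members that left the shift downwards at 1 week. Rps21 had 669 CPM in irradiated and 590 CPM in sham microglia at 6 h, and 645 CPM in irradiated and 932 CPM in sham microglia at 1 week. Rps12 had 792 CPM in irradiated and 693 CPM in sham microglia at 6 h, and 803 CPM in irradiated and 1137 CPM in sham microglia at 1 week. In both genes the sham library at 1 week stood above the other 3 libraries, which lay close together. Their log2 folds at 1 week were -0.53 (interval -0.59 to -0.48) for Rps21 and -0.50 (interval -0.55 to -0.45) for Rps12, while over the sham library at 6 h they were 0.13 and 0.21, so the direction turned with the sham library used.

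The 3 stalk proteins, which form the lateral arm of the large subunit that engages elongation factors, did not move alike. Rplp0, the base of the stalk, had log2 folds of 0.12 at 6 h and 0.02 at 1 week. Rplp1 had 1879 CPM in irradiated and 1658 CPM in sham microglia at 6 h, and 1888 CPM in irradiated and 2526 CPM in sham microglia at 1 week. Its log2 fold was 0.18 at 6 h and -0.42 (interval -0.45 to -0.39) at 1 week, and again the sham library at 1 week was the one that stood apart. Rplp2 lay between them, with log2 folds of 0.17 and -0.24.

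Rpl35, a large-subunit protein at the polypeptide exit tunnel, followed the time and not the dose. It had 1557 CPM in irradiated and 1480 CPM in sham microglia at 6 h, and 864 CPM in irradiated and 940 CPM in sham microglia at 1 week. Both 1-week libraries were low and both 6 h libraries high. The log2 folds of irradiated over sham were 0.07 at 6 h, somewhat under the median member, and -0.12 at 1 week, near it, while the later sham library over the earlier one was -0.65 (interval -0.70 to -0.61). Age, time after the procedure and the preparation of the libraries cannot be told apart here. Rpl35 has 3 near-identical copies, of which 2 (Gm10269 and Gm2000) are counted features.

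Among members that bind Mdm2, those that left the shift were Rps27l and Rps19. Rpl5 had log2 folds of 0.15 at 6 h and -0.29 at 1 week, and Rpl11 had 0.05 and -0.11, all within the common shift. Of 19 measured members reported in the literature to bind Mdm2, 2 left the shift upwards at 6 h and 2 at 1 week, where 10.3% and 17.2% of all genes lay as far above it, and their medians were 0.14 and -0.12 beside 0.12 and -0.13 for all members. The list of 22 measured Diamond-Blackfan anaemia genes had medians of 0.15 and -0.16, and 1 of them left the shift upwards at 6 h and 1 at 1 week, Rps19 both times, beside the same shares of all genes. Rps27a, made as a fusion with ubiquitin, had log2 folds of 0.09 and -0.17.

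The most abundant member stayed with the common shift. Rps29, the member of highest level, had 5515 CPM in irradiated and 5223 CPM in sham microglia at 6 h, and 5141 CPM in irradiated and 5511 CPM in sham microglia at 1 week, with log2 folds of 0.08 and -0.10. It supplied between 50.04 and 53.4 of every 1000 member UMIs in the 4 libraries. Across the 77 canonical members the Spearman correlation of the log2 fold with mean CPM was -0.27 at 6 h and 0.47 at 1 week, and -0.47 between the sham libraries. These are descriptions across genes, which share libraries and depth. Members of low level therefore lay somewhat lower at 1 week and somewhat higher in the sham library at 1 week, which enters both comparisons.

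Single cells showed the same order as the sums. With each cell thinned to 1000 UMIs, the median cell held 10.0% ribosomal protein UMIs in irradiated (quartiles 8.10% and 12.8%) and 9.40% in sham microglia (quartiles 7.70% and 11.4%) at 6 h. At 1 week the median was 9.0% in irradiated (quartiles 7.50% and 10.9%) and 9.70% in sham microglia (quartiles 7.90% and 11.8%). The quartile ranges overlapped widely. The unthinned medians were 10.0% in irradiated and 9.38% in sham microglia at 6 h, and 9.01% in irradiated and 9.61% in sham microglia at 1 week.

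The irradiated library at 6 h also held a small set of shallow cells rich in these transcripts. Its 90 cells of 1000 to just under 2000 UMIs had 16.2% ribosomal protein UMIs (interval 15.99 to 16.4), against 9.43% in the 93 such cells of sham microglia at 6 h. At 1 week such cells had 9.42% in irradiated and 9.59% in sham microglia. Of the 90 cells, 14 had UMIs of fewer than 4 of the 9 microglia markers, against 1 of 93 in sham microglia at 6 h; the part of other cell types in this share was not tested. These cells carried 1.84% of their library, and in cells of 2000 to just under 4000 UMIs the share was 10.3% in irradiated and 9.53% in sham microglia at 6 h. In cells of at least 4000 UMIs the share was 11.8% in irradiated and 10.5% in sham microglia at 6 h. With barcodes from 2000 UMIs and 1000 genes and at most 5% mitochondrial UMIs, the median member at 6 h was 0.10.

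**Figure D4:**
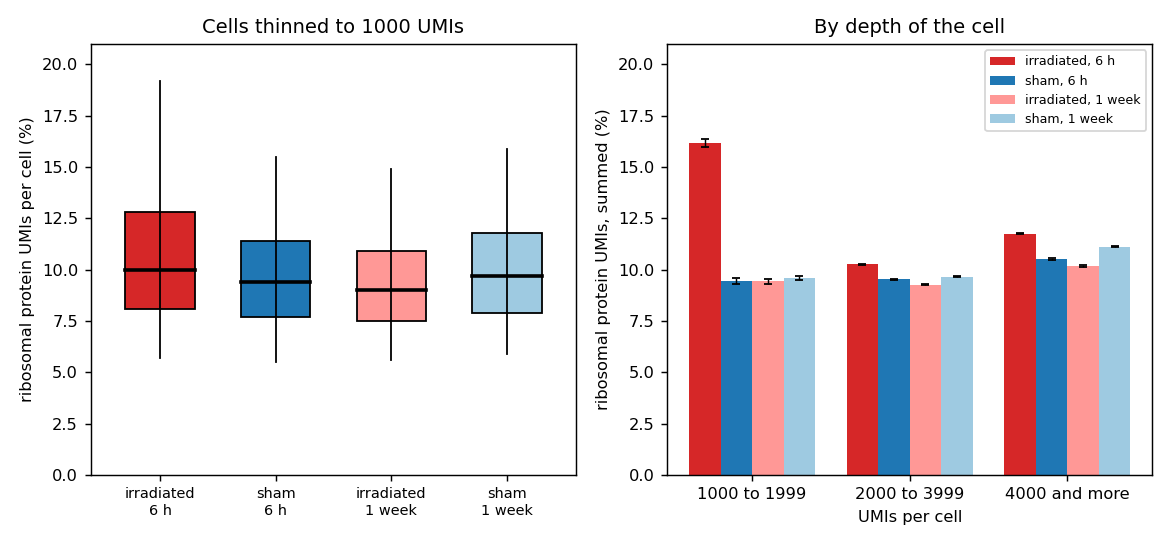
Left, ribosomal protein UMIs as a percentage of 1000 UMIs per cell in the 4 libraries (box, quartiles with the median; line, 5th to 95th percentile). Right, the summed percentage by depth of the cell with exact 95% intervals (counting error only); the cells of fewer than 2000 UMIs in irradiated microglia at 6 h reach 16.2%, and the other bars lie between 9.26% and 11.8%.

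Rps27l and Rps19 were then compared between cells with and without a UMI of Cdkn1a within a library, which splits cells by a sparse count and by depth as well as by expression. In irradiated microglia at 1 week Rps27l had 384 CPM (interval 369 to 398) in the 1959 cells with a Cdkn1a UMI and 185 CPM (interval 154 to 220) in the 190 cells without one. Rps19 had 2389 CPM in those with and 1994 CPM in those without at 1 week. In irradiated microglia at 6 h, where 1938 of the cells had a Cdkn1a UMI, Rps27l had 721 CPM in cells with and 696 CPM (interval 561 to 854) in the 48 cells without, so no difference was detectable there. Rps19 went the other way at 6 h, with 2609 CPM (interval 2572 to 2647) in cells with and 3391 CPM (interval 3084 to 3719) in cells without. These 48 cells also had a lower median depth, 2649 UMIs against 3532.5 in cells with a Cdkn1a UMI, and a higher share of ribosomal protein UMIs, 14.4% against 10.96%; the part of either in the Rps19 level was not tested. In sham microglia Rps27l had 241 CPM in cells with and 176 CPM in cells without at 6 h, and 202 CPM with and 157 CPM without at 1 week. The cells of irradiated microglia at 1 week without a Cdkn1a UMI were thus close to sham cells in Rps27l but not in Rps19, which had 1301 CPM in the sham cells without a Cdkn1a UMI at that time.

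Around the ribosome itself, some factors of ribosome assembly were higher at 6 h. Of 42 measured ribosome biogenesis factors 6 were at least 1.5-fold higher and 0 lower, beside 8.97% and 9.31% of all genes, with a median log2 fold of 0.19. Over the sham library at 1 week 13 of the 42 were higher and 0 lower, beside 11.8% and 9.51% of genes, with a median of 0.38. Gnl3 (nucleostemin, a nucleolar GTPase) had 1089 UMIs in irradiated against 502 in sham microglia and a log2 fold of 1.52, Nip7 (a factor of 60S maturation) had 0.94 and Pno1 (a factor of 40S maturation) had 0.88. At 1 week 0 of the 42 were higher and 1 lower, beside 4.01% and 3.12% of all genes. Their median was 0.09, with log2 folds of -0.04 for Gnl3, 0.24 for Nip7 and 0.11 for Pno1. The median of 32 translation initiation factors was 0.08 at 6 h and 0.03 at 1 week. In either direction 0 of them passed 1.5-fold at either time, beside the same shares of all genes.

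Mitochondrial ribosomal proteins, the nucleus-encoded parts of a separate ribosome, lay near the median of all genes at both times. The 76 measured genes had a median of 0.01 at 6 h and 0.07 at 1 week. At 6 h 1 gene, Mrpl41 at 0.65, was at least 1.5-fold higher, beside 8.97% of all genes. At 1 week 0 were, beside 4.01%. Among 11 elongation factors and their regulators the median was 0.09 at 6 h and -0.01 at 1 week. Eef2k, the kinase that inactivates elongation factor 2, had 332 UMIs in irradiated against 859 in sham microglia at 6 h and a log2 fold of -0.97, and -0.28 at 1 week. The 10 ribosome partners outside the name rule had medians of 0.08 and -0.10, near those of the members, and Fau, the fusion gene of the small-subunit protein eS30, had log2 folds of 0.14 and -0.18.

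Of 5 p53 target genes set beside Rps27l, 5 were at least 1.5-fold higher after irradiation at both times, beside 8.97% and 4.01% of all genes. Their medians were 3.68 and 2.49, and they were listed with earlier results of these data known. Mdm2 had log2 folds of 2.27 at 6 h and 1.20 at 1 week, close to those of Rps27l, and Cdkn1a had 5.82 and 5.28. Bax, a pore-forming protein of apoptosis, had 2.38 and 1.74. Among 21 measured genes of ribosome rescue and stress signalling, 4 were higher and 4 lower at 6 h, beside 8.97% and 9.31% of all genes, and 3 were higher and 1 lower at 1 week, beside 4.01% and 3.12%. Zak, the kinase that senses stalled ribosomes, had 193 UMIs in irradiated against 35 in sham microglia at 6 h and 107 in irradiated against 21 in sham microglia at 1 week, with log2 folds of 2.87 and 1.91. Sesn2, a stress-induced inhibitor of mTORC1, had log2 folds of 3.02 and 2.08. Ddit4 (1.13) and Ddit3 (0.70) were also higher at 6 h. The 4 lower at 6 h were Sesn1 (-0.86), Rps6ka1 (-0.68), Rps6kb2 (-0.68) and Eif2ak1 (-0.64). The median of the 21 genes was -0.16 at 6 h and -0.07 at 1 week.

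Features named for a ribosomal protein with -ps lie outside the name rule and moved in the same directions as Rps27rt and Rpl6l. Of the 16 such features 12 reached 50 UMIs at 6 h. All 12 lay above 0 in log2 fold of irradiated over sham, beside 42.9% of all genes. Their median was 0.59 and their range 0.05 to 1.47. At 1 week 11 were measured and all 11 lay below 0, where 55.9% of all genes lay above it. Their median was -0.53 and their range -1.04 to -0.09. Intervals reached 0 for Rpl13a-ps1 at 6 h (-0.40 to 0.50) and for Rps18-ps3 at 1 week (-0.40 to 0.23). Between the sham libraries the median of the features was 0.13, with 7 of 11 above 0 beside 41.7% of genes. Over the other sham library the medians were 0.39 for irradiated microglia at 6 h and -0.38 for irradiated microglia at 1 week. There 12 of 12 lay above 0 at 6 h, beside 48.5% of genes. At 1 week 9 of 11 lay below 0, where 47.9% of genes lay above it.

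The single features show the size of the difference, and those named here were chosen after their values were seen. Rpl23a-ps3, annotated as a processed pseudogene and the most counted of them, had 5546 UMIs in irradiated and 4843 in sham microglia at 6 h, and 2955 in irradiated and 3098 in sham microglia at 1 week. Its log2 fold was 0.60 (interval 0.54 to 0.65) at 6 h and -0.51 (interval -0.58 to -0.44) at 1 week, where its namesake Rpl23a had 0.17 and -0.06. Both differences of the copy were larger than those of the gene. Rps12-ps3, annotated as protein coding, had 0.60 and -0.94, where Rps12 had 0.19 and -0.50. Rps18-ps3 had 1.47 and -0.09, where Rps18 had 0.12 and 0.11. The last 300 bases of 53 of the 87 members had a near-identical match in another annotated gene, and those of 19 matched a counted feature. Not every match is a copy: the counted matches of Rpl7l1 were Cd9 and Madd, which do not carry a ribosomal protein name. Copies that match elsewhere in a transcript were not sought. Which locus the UMIs of the -ps features and other copies come from was not tested.

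**Figure D5:**
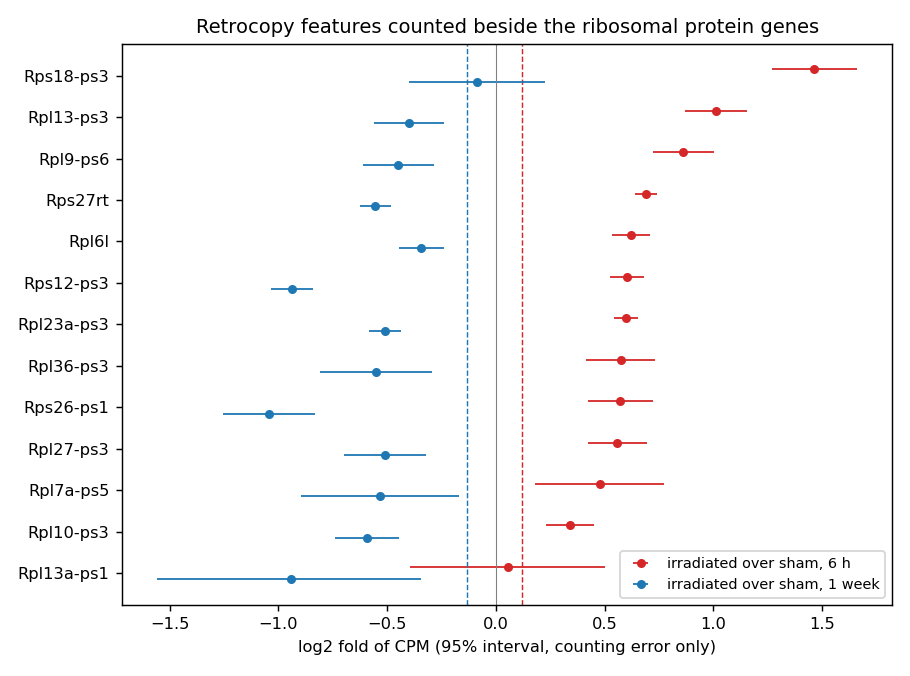
Log2 fold of CPM of irradiated over sham microglia at 6 h (red) and at 1 week (blue) for 11 -ps features and for the members Rps27rt and Rpl6l, with 95% intervals that cover counting error only. Dashed lines mark the median of the 77 small-subunit, large-subunit and stalk members (0.12 and -0.13). Every feature shown is above 0 at 6 h and below 0 at 1 week. The intervals of Rpl13a-ps1 at 6 h and of Rps18-ps3 at 1 week reach 0.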

How the data were processed

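The authors deposited raw UMI counts per gene and barcode for the 4 libraries, made with Cell Ranger 2.0 on mm10 per the submitters' processing notes; neither the annotation release nor the handling of reads that match several genes is stated in the sources. Of 8486 barcodes (8095 cells per the design text), 8369 had at least 1000 UMIs, 500 genes and no more than 10% mitochondrial UMIs and were used; doublets were not removed. Counts were summed per library and scaled to CPM. Folds carry exact conditional binomial and shares exact Clopper-Pearson 95% intervals. The fold intervals were checked on counts simulated with counting error only, which is what the intervals assume, so variation between pools or cells was not covered. Near-identical copies of the last 300 bases of each member were sought with BLAST in the GENCODE vM21 transcripts. Named were the members that left the shift, the 10 of highest level, the 5 nearest the median at each time, the 5 farthest in each direction between sham libraries, paralogs and role genes, and up to 4 genes of each other list with the largest folds. Rpl6, Rpl22, Fau and the -ps features were added after their values were seen. The role of Rpl6l as a copy was added after the files were read. The members and lists were chosen with earlier results of these data known. Python 3.11.15, numpy 2.4.6, pandas 2.3.3 and scipy 1.17.1 were used.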

Additional observations from a re-analysis of the deposited data

Results flagged for a closer look

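The family shift had opposite directions at the 2 times: the median member was 0.12 in log2 fold of irradiated over sham at 6 h and -0.13 at 1 week. With 1 library per group the difference was not tested. Between the sham libraries the median member was 0.10.

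Rps27rt had a log2 fold of 0.69 at 6 h and -0.55 at 1 week, and Rpl6l had 0.62 and -0.34. Each moved one way at 6 h and the other way at 1 week, and these differences were not tested either.

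Outside the name rule, 16 features named for a ribosomal protein with -ps held 0.204% of all UMIs in irradiated and 0.132% in sham microglia at 6 h, and 0.101% in irradiated and 0.155% in sham microglia at 1 week. The share in the irradiated library at 6 h was above that of its control, which is why it is given here; the difference was not tested.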

How the results depend on the processing

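No paired analysis was possible because each group is 1 library. The log2 ratios of the summed share and the median member kept their sign in every setting run, but of the 37 named and measured members 13 changed sign at 6 h and 20 at 1 week against the other sham library; elsewhere at most 3 did, under median-of-ratios scaling at 1 week. Against the other sham library, at 6 h the log2 ratio of the summed share became 0.090, the median member 0.043, and 7 members left the shift upwards and 6 downwards. At 1 week it gave a ratio of -0.046, a median member of -0.025, and 1 member each at least 1.5-fold higher and lower. Barcodes from 2000 UMIs gave shares of 10.8% in irradiated microglia at 6 h and 10.4% in sham microglia at 1 week, ratios of 0.13 (6 h), -0.11 (1 week) and 0.063 (later over earlier sham), and a median member of 0.10 at 6 h. All deposited barcodes gave irradiated microglia at 6 h a share of 11.1% and a ratio of 0.16, and barcodes with at least 4 microglia markers 10.97% and 0.14. Totals without mitochondrial genes gave shares of 11.2% in irradiated and 10.1% in sham microglia at 6 h, and 9.76% in irradiated and 10.5% in sham microglia at 1 week.

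Median-of-ratios scaling gave ratios of 0.21, -0.14 and 0.11 (6 h, 1 week and sham), a median member of 0.19 at 6 h and 0.15 between shams, and 1 member 1.5-fold lower at 1 week; it moved the median of all genes by at most 0.07. Totals without the 50 highest other genes gave ratios of 0.12, -0.12 and 0.065, and a median member of 0.10 at 6 h. With a fold rule of 0.32 in log2, 7 members were higher at 6 h, 9 lower at 1 week and 13 higher between shams; at a 2-fold rule 1 was higher at 6 h, 1 at 1 week, and 0 were higher and 0 lower between shams. Counting members from 1 UMI brought in Rpl3l and Rpl39l, so that 1 was lower at 6 h, and 4 were higher and 2 lower between shams. With a distance of 1.5-fold, 1 member left the shift upwards at 6 h, 0 downwards at 1 week, and 1 upwards and 1 downwards between shams; centred on the summed share, 2 left downwards between shams. Without the paralogs and Rps19bp1, an alternative chosen after seeing the data, 1 member (Rps19) was 1.5-fold higher and 1 left the shift upwards at each time. Over the 6 other filters and scalings the log2 fold of Rps27l ranged from 1.95 to 2.04 at 6 h and from 1.14 to 1.18 at 1 week, and that of Rps19 from 0.65 to 0.74 and from 0.80 to 0.83.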
